A study of Homo sapiens with 5 samples.

Results

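The genes described here are 34 genes of the unfolded protein response and the integrated stress response, taken by gene symbol from a table of 27933 symbols, and all 34 were found. They were chosen for their known roles, but with earlier results of these data known. They were read as 19 endoplasmic reticulum (ER) folding genes and 15 integrated stress response genes. Transcript levels were measured by RNA sequencing of total RNA in 3 libraries of HaCaT cells labelled as AHNAK knockdown and in 2 libraries of control HaCaT cells. HaCaT is an established human keratinocyte line, grown here in DMEM with fetal bovine serum, and AHNAK encodes a very large scaffold protein. The study asked what AHNAK does for keratinocyte proliferation and differentiation. Knockdown is the word of the sample labels, and the design text speaks of a knockout instead. The knockdown libraries are called si_1, si_2 and si_3 in the sample descriptions, with no sequence or target site of an interfering RNA, and separate cultures are not mentioned, so p-values reflect only how far these libraries vary, which may be technical.

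Proteins that enter the ER are folded there by chaperones, and an excess of unfolded protein is sensed by IRE1, ATF6 and PERK. IRE1 splices the XBP1 messenger RNA, ATF6 is released as a transcription factor, and both switch on genes for chaperones and for the removal of misfolded proteins. PERK belongs to a group of kinases that phosphorylate eIF2 alpha, which slows translation in general while the ATF4 protein is made, and ATF4 switches on genes of amino acid synthesis and of feedback on the response. In the epidermis, activity of this response is known to accompany keratinocyte differentiation. Splicing of XBP1, phosphorylation of eIF2 alpha and protein levels are not measured by gene-level transcript values.

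Short promoter sequences through which ATF6, XBP1 and ATF4 are known to act were looked for in both arms, and the genes that hold them are shown because these letters are independent of the measured levels. Windows of 300 bases, 250 before and 50 after the start site, were found for 31 of the 34 genes in RefSeq (GRCh38.p14), taking the first window listed for a gene. The ER stress response element was searched on both strands as CCAAT and CCACG with 9 bases between them. It was present in 6 of 18 ER folding windows, in 0 of 13 integrated stress response windows and in 0.0806% of all 27305 windows. The genes were chosen for known roles in these responses, so a higher share than over all windows is no separate evidence, here or below. Below, each stretch reads 5′ to 3′ on the gene's strand, with both parts of the element in capitals. Elements on the other strand read CGTGG, then ATTGG.
HSPA5: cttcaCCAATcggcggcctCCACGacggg
HSP90B1, first element: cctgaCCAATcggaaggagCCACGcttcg
HSP90B1, second element: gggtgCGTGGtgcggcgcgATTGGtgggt
CALR: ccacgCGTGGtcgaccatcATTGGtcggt
CANX: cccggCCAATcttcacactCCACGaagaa
CRELD2: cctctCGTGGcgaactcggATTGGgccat
XBP1: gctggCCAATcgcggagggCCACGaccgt
These stretches lie at chr9:125241386-125241414 (minus strand) for HSPA5, at chr12:103930211-103930239 and chr12:103930316-103930344 (plus strand) for HSP90B1, and at chr19:12938379-12938407 (plus strand) for CALR. Those of CANX, CRELD2 and XBP1 lie at chr5:179698773-179698801 (plus strand), chr22:49918549-49918577 (plus strand) and chr22:28800598-28800626 (minus strand). The HSPA5 element begins 66 bases before the start site.

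A shorter form of the element, ATTGG and CCACG with 1 base between them, was present in 3 of 18 ER folding windows, in 0 of 13 integrated stress response windows and in 0.0549% of all windows. On the other strand this form reads CGTGG, then CCAAT, as in HYOU1 and SDF2L1. The HYOU1 window held it at 2 places, of which the more distant overlaps a match to the element TGACGTG, whose letters were in 2.0% of all windows and in no other of the 31.
HERPUD1: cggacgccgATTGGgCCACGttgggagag
HYOU1, nearer element: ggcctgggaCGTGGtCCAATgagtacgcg
SDF2L1: cctcggaagCGTGGaCCAATcaaaaccct
The ATF4 site, called the amino acid response element, was searched as TTGCATCA or TTTCATCA on both strands. It was present in CHAC1 and ASNS (2 of 13 integrated stress response windows), in HERPUD1 (1 of 18 ER folding windows) and in 2.0% of all windows.
CHAC1: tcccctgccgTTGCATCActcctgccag
ASNS: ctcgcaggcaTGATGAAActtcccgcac
HERPUD1, amino acid response element: acgcggcgggTTGCATCAgcccgtgccc
HERPUD1 thus held the letters of both kinds of element, at chr16:56932016-56932044 and chr16:56931956-56931983 (plus strand). The CHAC1 stretch lies at chr15:40953252-40953279 (plus strand), the ASNS stretch at chr7:97872459-97872486 (minus strand), the HYOU1 stretch at chr11:119057265-119057293 (minus strand) and the SDF2L1 stretch at chr22:21642105-21642133 (plus strand). A match of letters does not show that a factor bound there in these cells.

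AHNAK itself stood at 113.9, 69.6 and 115.3 FPKM (mapped fragments relative to transcript length in kilobases and to the size of the library) in knockdown replicates 1, 2 and 3, against 204.8 and 242.0 FPKM in control replicates 1 and 2, a log2 difference of -1.19 (limma adjusted p = 0.372). All 8 keratinocyte markers examined were above 1 FPKM, with summed levels of 4060 to 5473 FPKM in knockdown and 5620 to 6937 FPKM in control libraries. Of markers of other cell types, COL1A1, COL3A1 and DCN of fibroblasts, CD68 of leukocytes and CDH5 of endothelium averaged at least 1 FPKM. The summed fibroblast list was at 6.12 to 10.2 FPKM in knockdown and 3.30 to 5.02 FPKM in control libraries, and the leukocyte list at 21.2 to 28.7 and 16.1 to 18.3 FPKM. The melanocyte sums reached at most 0.736 FPKM in knockdown and 0.457 FPKM in control libraries, the endothelial sums at most 2.98 FPKM in either group, and TYR and LST1 were listed at 0 in all 5. The part of other cell types in the results was not tested. Read totals are not given with FPKM values, so the depth is unknown, and no counting interval can be put on a value. The libraries fell into 2 sets by the step sizes of their low values: set A held knockdown replicates 1 and 3 and control replicate 1, and set B held knockdown replicate 2 and control replicate 2. No label describes these sets, and differences within each are given beside the pooled ones.

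These stress response genes were transcribed in HaCaT cells at very different levels. Of the 34, 9 averaged at least 100 FPKM over the 5 libraries: DDIT4 at 466.0 FPKM, CALR, HSPA5, HSP90B1, ATF4, PSAT1, PHGDH, PDIA3 and CANX. Another 5 averaged under 10 FPKM: ATF6, DNAJB9, CHAC1, VLDLR and ASNS. ASNS, which makes asparagine and is a textbook target of ATF4, averaged 0.436 FPKM, while the serine synthesis genes PSAT1 and PHGDH were at higher levels than 97.2% and 96.7% of tested genes. ASNS has 4 annotated pseudogene copies and overlaps AC079781.5 on the same strand, which may share its reads, so its low level is uncertain in that respect. In 32 of the 34 genes the highest library was under 2 times the lowest, from 1.07 times for CANX to 1.70 times for TRIB3. The other 2 were CHAC1 (5.11 times) and ASNS (5.24 times).

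**Figure D1:**
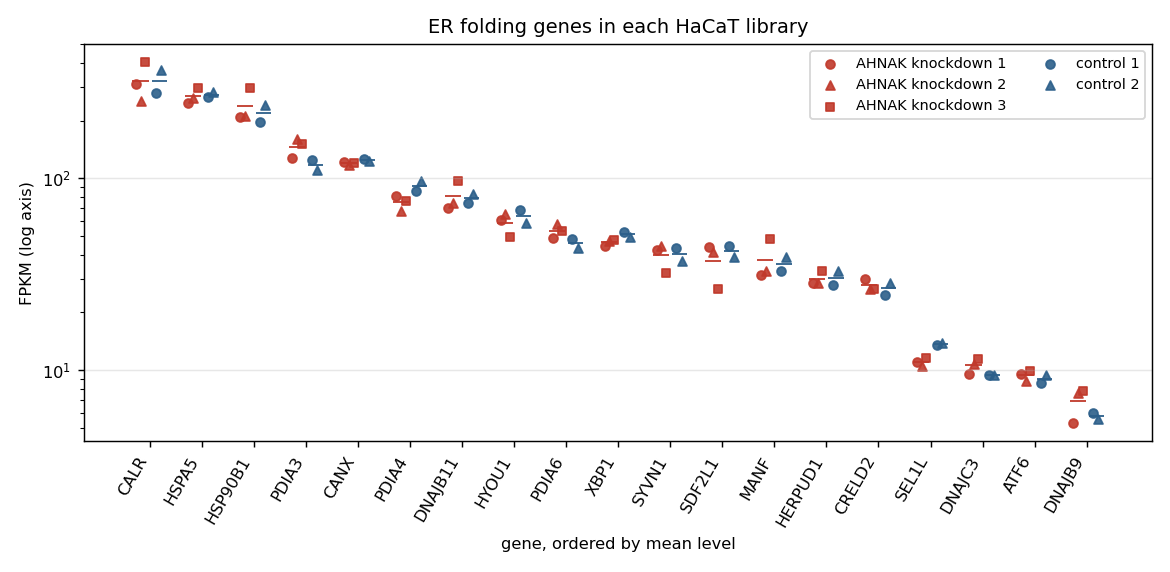
Levels of the 19 ER folding genes in FPKM on a log axis, with 1 point per library (3 AHNAK knockdown, 2 control) and horizontal lines for group means, genes ordered by mean level. Groups lie close together for nearly every gene, from CALR (323.4 FPKM over the 5 libraries) to DNAJB9 (6.45 FPKM).

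None of the tested ER folding or integrated stress response genes had an adjusted p under 0.05 between knockdown and control. AHNAK itself did not either (limma adjusted p = 0.372), so this threshold also missed the target of the knockdown. Each difference is the knockdown mean less the control mean of log2(FPKM + 0.5), a scale that understates the change of low genes, and 33 of the 34 genes were tested, all but ASNS, whose mean was under the minimum of 1 FPKM. Limma with Benjamini-Hochberg adjustment over 12196 genes called 0 of the 33 (smallest adjusted p = 0.416), against 0.0% of all tested genes. At an unadjusted p under 0.05 there was 1 of 33, SEL1L, whose 95% interval excluded 0, against 11.7% of all tested genes. Knockdown and control values did not overlap in 13 of 33 (6 higher, 7 lower), or 39.4%, against 32.0% of all tested genes. The 95% confidence interval lay within a log2 difference of 1 in either direction for 32 of the 33, all but CHAC1. That is 97.0%, against 90.1% of all tested genes. A p above the threshold does not show that the levels are equal, and the intervals give the changes that remain possible.

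**Figure D2:**
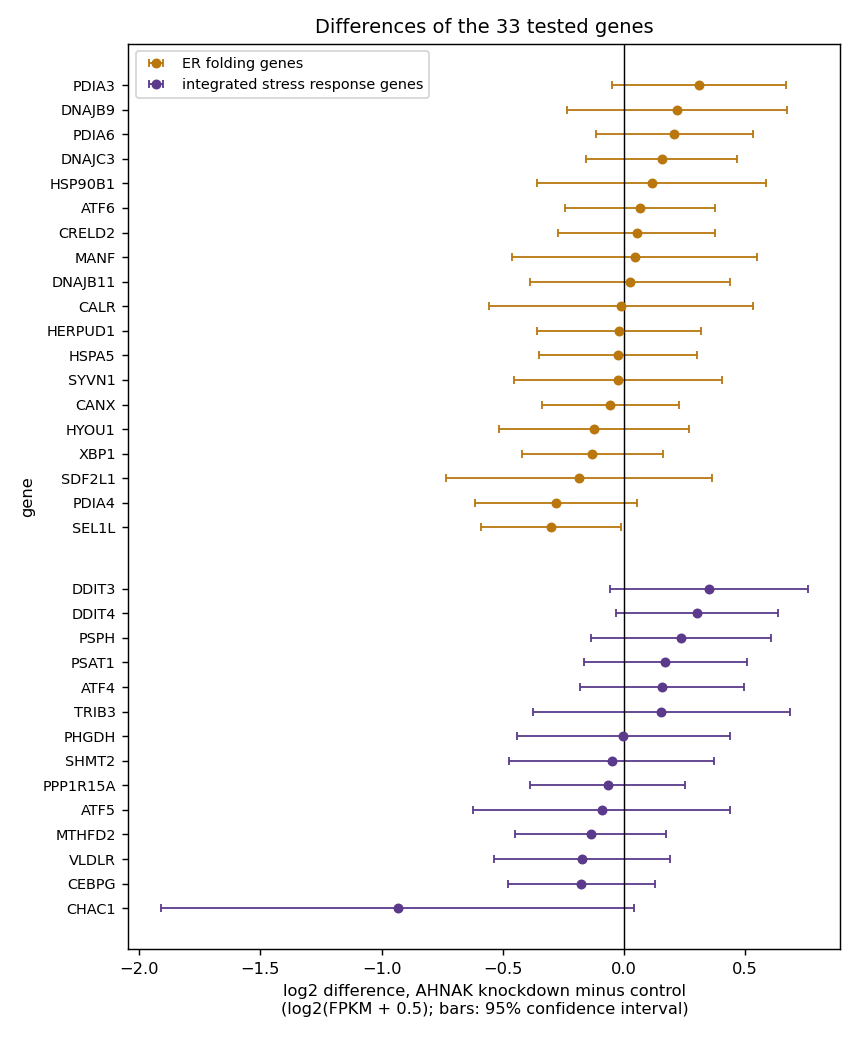
Log2 difference of each of the 33 tested genes, AHNAK knockdown minus control, with 95% confidence intervals from limma; ER folding genes are above and integrated stress response genes below. Every interval but that of SEL1L includes 0, and CHAC1 has the widest interval (-1.91 to 0.04).

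Among the general chaperones, HSPA5 (BiP), the ER Hsp70 that also holds the sensors inactive, was at 247.9, 263.4 and 295.3 FPKM in knockdown replicates 1, 2 and 3, against 264.3 and 281.3 FPKM in control replicates 1 and 2. The knockdown values lay on both sides of the controls. HSPA5 averaged 268.8 ± 24.2 FPKM (SD, n = 3) in knockdown and 272.8 ± 12.1 FPKM (SD, n = 2) in control, with a log2 difference of -0.02 and an interval of the fold from 0.785 to 1.23. HSP90B1 (GRP94), the ER Hsp90, was at 208.9, 210.5 and 295.1 FPKM in knockdown and 196.1 and 240.6 FPKM in control. Its highest library was knockdown replicate 3, and the groups overlapped. HYOU1 (GRP170), which exchanges nucleotide on HSPA5, was at 49.4 to 64.9 FPKM in knockdown and at 58.5 and 68.4 FPKM in control, a log2 difference of -0.12. For HSP90B1 and HYOU1 the difference changed sign between the sets, with 0.34 and -0.32 in set A and -0.19 and 0.15 in set B.

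CALR and CANX, the lectin chaperones that hold newly made glycoproteins, gave the widest and the narrowest spread of the 5 ER folding genes above 100 FPKM. CALR was at 310.8, 254.5 and 404.2 FPKM in knockdown replicates 1, 2 and 3, against 277.9 and 369.3 FPKM in control. Both its highest and its lowest library were knockdown libraries. Its log2 difference was -0.01 in the pooled fit, 0.35 in set A and -0.54 in set B. CANX was at 122.2, 117.5 and 120.5 FPKM in knockdown and 126.1 and 123.6 FPKM in control. The groups did not overlap, knockdown being lower, but by little, with a log2 difference of -0.06 (95% interval -0.34 to 0.23).

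The disulfide isomerases differed among themselves in direction. PDIA3 (ERp57), which works with CALR and CANX, was at 127.5, 160.7 and 150.9 FPKM in knockdown replicates 1, 2 and 3, against 124.4 and 111.2 FPKM in control. Each knockdown library lay above both controls, with means of 146.4 ± 17.1 FPKM in knockdown (SD, n = 3) and 117.8 ± 9.36 FPKM in control (SD, n = 2). The log2 difference was 0.31 (SE 0.15; limma adjusted p = 0.479; set A 0.16, set B 0.53). PDIA3 has 2 annotated pseudogene copies (PDIA3P1 and PDIA3P2) that may share its reads, and it overlaps ELL3 on the other strand.

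PDIA6, which also tempers signalling by IRE1, was at 48.8, 57.6 and 53.1 FPKM in knockdown, against 48.3 and 43.6 FPKM in control. Its knockdown values were also all above the controls, though knockdown replicate 1 and control replicate 1 were nearly level, and the log2 difference was 0.21 (set A 0.08, set B 0.40). PDIA4 (ERp72) was at 80.8, 68.0 and 76.4 FPKM in knockdown, against 85.5 and 97.2 FPKM in control. Here the order was the opposite, every knockdown value lying below both controls, with a log2 difference of -0.28 (SE 0.14; limma adjusted p = 0.479), -0.12 in set A and -0.51 in set B. In all 3 isomerases the groups did not overlap, which fixes the same sign in both sets.

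Of the co-chaperones and small ER proteins, 5 of 6 had a positive difference, or 83.3%, against 51.3% of all tested genes. Here 0 of 6 passed, and the sign was the same in both sets for 2 of 6, or 33.3%, against 55.7%. DNAJB9 (ERdj4), a J-domain protein and classic target of XBP1, was at 5.27, 7.60 and 7.82 FPKM in knockdown replicates 1, 2 and 3, against 5.97 and 5.58 FPKM in control. Knockdown replicate 1 was the lowest of the 5 libraries and replicates 2 and 3 the highest, so that the log2 difference of 0.22 had an interval from -0.23 to 0.67. DNAJC3 (p58IPK), a co-chaperone also known to inhibit PERK, was at 9.58, 10.8 and 11.4 FPKM in knockdown, against 9.42 and 9.43 FPKM in control, a log2 difference of 0.15 with no overlap.

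DNAJB11 (ERdj3), MANF, a secreted protein that binds HSPA5, and CRELD2 differed by 0.02, 0.04 and 0.05. MANF showed how much 1 library could weigh: it was at 31.3, 32.9 and 48.3 FPKM in knockdown, against 32.8 and 38.7 FPKM in control. Without knockdown replicate 3 its log2 difference was -0.15. SDF2L1, a partner of the J-domain proteins, was at 44.0, 41.2 and 26.6 FPKM in knockdown, against 44.4 and 38.7 FPKM in control. Here knockdown replicate 3 was the lowest library instead, and the log2 difference of -0.19 was 0.04 without it.

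In ER-associated degradation, which returns misfolded proteins to the cytosol, SEL1L came nearest to a difference. SEL1L, the adaptor of the HRD1 ligase (GRCh38 chromosome 14, 81471549 to 81533861, minus strand), was at 11.04, 10.5 and 11.5 FPKM in knockdown replicates 1, 2 and 3, against 13.4 and 13.9 FPKM in control. Every knockdown library lay below both controls. SEL1L averaged 11.001 ± 0.523 FPKM in knockdown (SD, n = 3) and 13.7 ± 0.309 FPKM in control (SD, n = 2), with a log2 difference of -0.30 (SE 0.12, set A -0.24, set B -0.39; limma adjusted p = 0.416). SEL1L passed when limma weighted the libraries by their scatter (-0.35, adjusted p = 0.0440), a fit that called 1428 genes in all and gave a weight of 3.98 to knockdown replicate 2 but 0.257 to knockdown replicate 3.

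SYVN1 (HRD1), the ubiquitin ligase that SEL1L serves, was at 42.5, 44.6 and 32.0 FPKM in knockdown and at 43.1 and 37.1 FPKM in control, a log2 difference of -0.03. Its annotated span overlaps FAU on the same strand and MRPL49 on the other, whose reads may be divided with it. HERPUD1, a partner of this ligase that held letters of both promoter elements, was at 28.4, 28.3 and 32.7 FPKM in knockdown, against 27.8 and 32.8 FPKM in control. The groups overlapped in both genes, and the HERPUD1 difference was -0.02.

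Of the factors that drive this arm, XBP1 was at 44.4, 47.2 and 47.8 FPKM in knockdown replicates 1, 2 and 3, against 52.8 and 49.2 FPKM in control. Knockdown was lower without overlap, with a log2 difference of -0.13 (95% interval -0.42 to 0.16), or -0.23 after each library was corrected for its dependence on GC content and length. XBP1 has 1 annotated pseudogene copy (XBP1P1) that may share its reads. ATF6 was at 9.52, 8.76 and 9.95 FPKM in knockdown and 8.53 and 9.39 FPKM in control, with overlap and a log2 difference of 0.07.

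**Figure D3:**
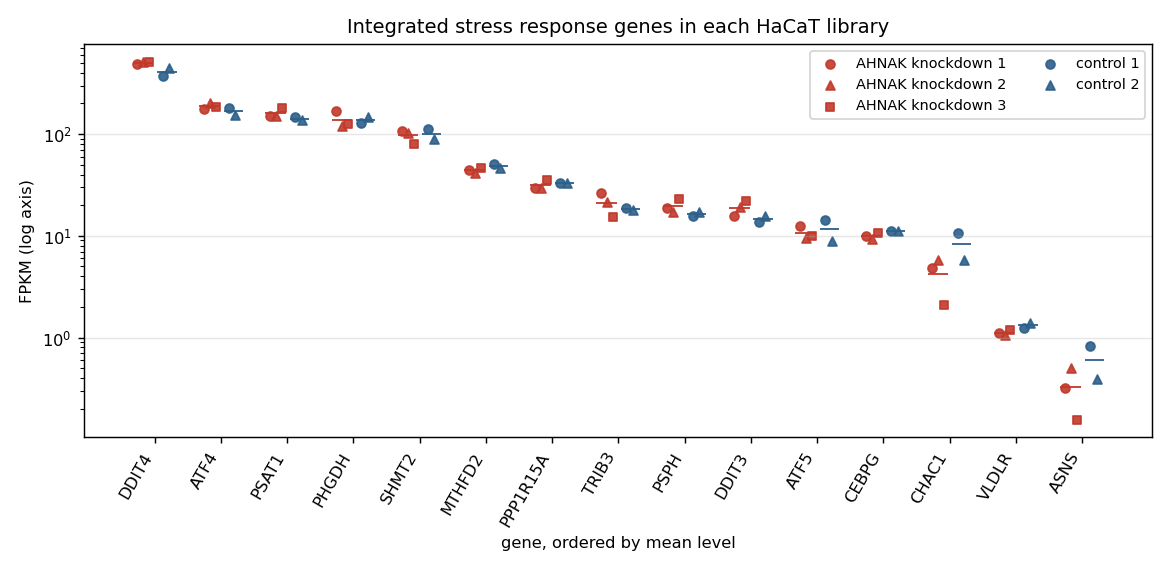
Levels of the 15 integrated stress response genes in FPKM on a log axis, with 1 point per library (3 AHNAK knockdown, 2 control) and horizontal lines for group means, genes ordered by mean level. DDIT4 is at the top with its 3 knockdown libraries above both controls, and CHAC1 and ASNS show the widest scatter, with control replicate 1 highest and knockdown replicate 3 lowest in both.

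In the integrated stress response, the transcription factors were near the control level or slightly off it in either direction. ATF4, the central factor, is set mainly by translation, and its transcript was at 175.3, 200.9 and 184.0 FPKM in knockdown replicates 1, 2 and 3, against 182.4 and 153.4 FPKM in control. The groups overlapped through control replicate 1, and the log2 difference was 0.16 (-0.02 in set A, 0.39 in set B). ATF4 has 4 annotated pseudogene copies, so its values are uncertain in that respect. DDIT3 (CHOP), the factor tied to cell death under lasting stress, was at 15.8, 19.2 and 21.96 FPKM in knockdown, against 13.6 and 15.8 FPKM in control. Knockdown replicate 1 was level with control replicate 2 to 3 digits and the others lay above both controls.

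DDIT3 averaged 18.97 ± 3.08 FPKM (SD, n = 3) in knockdown and 14.7 ± 1.54 FPKM (SD, n = 2) in control, with a log2 difference of 0.35 (SE 0.17; limma adjusted p = 0.479), 0.44 in set A and 0.27 in set B. A correction for transcript length and GC content, made library by library, left it at 0.22. DDIT3 lies on chromosome 12 at 57516588 to 57521737 (GRCh38, minus strand) and overlaps MARS on the other strand, and whether counting used strand is not given in the sources used here. CEBPG, a partner of ATF4, was at 9.92, 9.21 and 10.6 FPKM in knockdown, against 11.2 and 11.2 FPKM in control, lower in every knockdown library with a log2 difference of -0.18. ATF5, translated like ATF4 under stress, was at 12.4, 9.55 and 9.92 FPKM in knockdown and at 14.3 and 8.88 FPKM in control, and its controls enclosed all knockdown values.

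Of the genes that restrain the response, neither differed from control beyond its error. TRIB3, a pseudokinase that inhibits ATF4, was at 26.1, 21.3 and 15.3 FPKM in knockdown replicates 1, 2 and 3, against 18.8 and 17.8 FPKM in control. Its knockdown libraries lay on both sides of the controls, with a log2 difference of 0.15 and an interval from -0.37 to 0.68. PPP1R15A (GADD34), which brings a phosphatase to eIF2 alpha, was at 29.5, 29.6 and 35.0 FPKM in knockdown, against 32.7 and 32.9 FPKM in control, a difference of -0.07.

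CHAC1, an enzyme that degrades glutathione and a sensitive ATF4 target, had the largest difference of the 33 tested genes in size. CHAC1 (GRCh38 chromosome 15, 40952962 to 40956519, plus strand) was at 4.81, 5.72 and 2.10 FPKM in knockdown replicates 1, 2 and 3, against 10.7 and 5.83 FPKM in control. The groups did not overlap, yet replicate 2 of knockdown and of control were nearly level, and the distance came from control replicate 1 and knockdown replicate 3. CHAC1 averaged 4.21 ± 1.88 FPKM in knockdown (SD, n = 3) and 8.28 ± 3.46 FPKM in control (SD, n = 2), with a log2 difference of -0.93 (SE 0.41; limma adjusted p = 0.444). The difference was -1.60 in set A, where its own spread gives an SE of 0.892, and -0.03 in set B. Without control replicate 1 the pooled difference was -0.52, and without knockdown replicate 3 it was -0.55.

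DDIT4 (REDD1), an inhibitor of mTORC1 that is also induced by low oxygen and glucocorticoids, was the most abundant of the 34. DDIT4 was at 486.5, 510.4 and 512.4 FPKM in knockdown replicates 1, 2 and 3, against 370.4 and 450.3 FPKM in control. The knockdown libraries lay close together and above both controls, with means of 503.1 ± 14.4 FPKM in knockdown (SD, n = 3) and 410.4 ± 56.5 FPKM in control (SD, n = 2). The log2 difference was 0.30 (SE 0.14; limma adjusted p = 0.465), 0.43 in set A and 0.18 in set B. Without control replicate 1 it was 0.16. VLDLR, a lipoprotein receptor, was near the filter at 1.10, 1.05 and 1.18 FPKM in knockdown, against 1.25 and 1.38 FPKM in control, a log2 difference of -0.17 with no overlap.

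The enzymes of amino acid and one-carbon metabolism gave no common direction, with 2 of 5 tested members higher and 3 lower. PHGDH, the first enzyme of serine synthesis, was at 168.3, 119.9 and 124.4 FPKM in knockdown replicates 1, 2 and 3, against 127.2 and 145.8 FPKM in control. Knockdown libraries held both its highest and its lowest value, and its log2 difference was 0.00 with an interval from -0.44 to 0.44. PSAT1, the next enzyme, was at 149.6, 150.1 and 179.0 FPKM in knockdown, against 146.8 and 136.0 FPKM in control. Knockdown was higher without overlap, with a log2 difference of 0.17, but PSAT1 has 4 annotated pseudogene copies and was at 0.07 after the GC content and length correction.

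PSPH, which completes serine synthesis and has a pseudogene copy, was at 18.7, 17.2 and 22.8 FPKM in knockdown, against 15.7 and 17.3 FPKM in control, with a difference of 0.23. SHMT2 and MTHFD2, mitochondrial enzymes of the folate cycle, differed by -0.05 and -0.14. SHMT2 was at 80.7 to 106.7 FPKM in knockdown and 89.3 and 111.0 FPKM in control. MTHFD2, which has 7 annotated pseudogene copies, was at 41.0 to 46.9 FPKM in knockdown and 46.1 and 50.9 FPKM in control. ASNS was at 0.317, 0.498 and 0.156 FPKM in knockdown replicates 1, 2 and 3, against 0.819 and 0.391 FPKM in control. These values were too low for the test, and they overlapped through knockdown replicate 2.

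As arms, the ER folding members and the tested integrated stress response members both had medians near 0 in the pooled fit. Other ATF4 targets are given apart below. The median log2 difference was -0.01 over the 19 ER folding genes (9 higher, 10 lower) and -0.03 over the 14 tested integrated stress response genes (6 higher, 8 lower), against 0.01 over all 12196 genes, of which 51.3% were higher. Within set A the ER folding median was 0.10 and within set B it was -0.10, and the integrated stress response medians were -0.02 and 0.05. The sign was the same in both sets for 8 of 19 ER folding genes, 42.1%, and for 9 of 14 integrated stress response genes, 64.3%, against 55.7% of all tested genes. By library, the median deviation of the ER folding genes from the mean of the 5 libraries was -0.07, -0.04 and 0.11 in knockdown replicates 1, 2 and 3 and -0.09 and 0.03 in control replicates 1 and 2. That of the integrated stress response genes was -0.02, -0.05 and 0.03 in knockdown and 0.03 and -0.06 in control. Knockdown replicate 3 was the highest library for 13 of the 34 genes, 38.2%, against 30.0% of all tested genes. Control replicate 1 was the highest for 10 of the 34, 29.4%, against 19.6% of all tested genes.

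**Figure D4:**
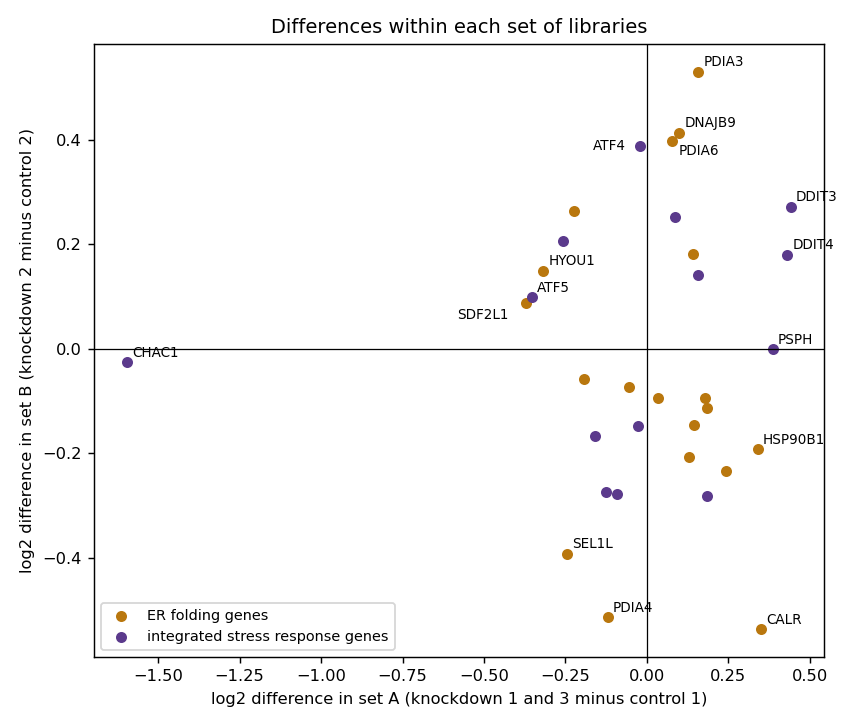
Log2 difference of the 33 tested genes within set A (x axis, knockdown replicates 1 and 3 minus control replicate 1) against that within set B (y axis, knockdown replicate 2 minus control replicate 2), with 1 point per gene. CHAC1 lies far left at -1.60 in set A and near 0 in set B, and CALR and HSP90B1 lie at opposite signs in the sets.

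Part of the scatter within the knockdown group went with base composition. Over 11743 tested genes with a matched transcript, the deviation of knockdown replicate 3 was related to the GC content of the longest transcript at Spearman's rho of -0.55, and that of knockdown replicate 1 at 0.606. Over the 33 genes here the same values were -0.488 and 0.567, as a description across genes that share their libraries. Among AT-rich genes, HSP90B1 (41.2% GC), DNAJB11 (37.8%) and DNAJB9 (40.4%) lay above their 5-library mean in knockdown replicate 3 by 0.37, 0.29 and 0.28. The AT-rich SEL1L (39.4%), CANX (41.6%) and XBP1 (41.5%) stayed close to theirs, at -0.06, -0.02 and -0.01. SDF2L1 (65.5% GC), SYVN1 (56.3%) and CHAC1 (62.6%) had deviations of -0.52, -0.30 and -1.14 there. MANF and CALR, at 51.6% and 53.9% GC, were high in that library too, by 0.41 and 0.34. The GC-rich DDIT4 (58.1%) and PPP1R15A (58.8%) also lay above their means there, by 0.15 and 0.13. After the correction for GC content and length, XBP1 was at -0.23 and CANX at -0.09, while CHAC1 was at -0.89, SEL1L at -0.29, PDIA3 at 0.27 and DDIT4 at 0.29, and 0 of the 33 passed.

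**Figure D5:**
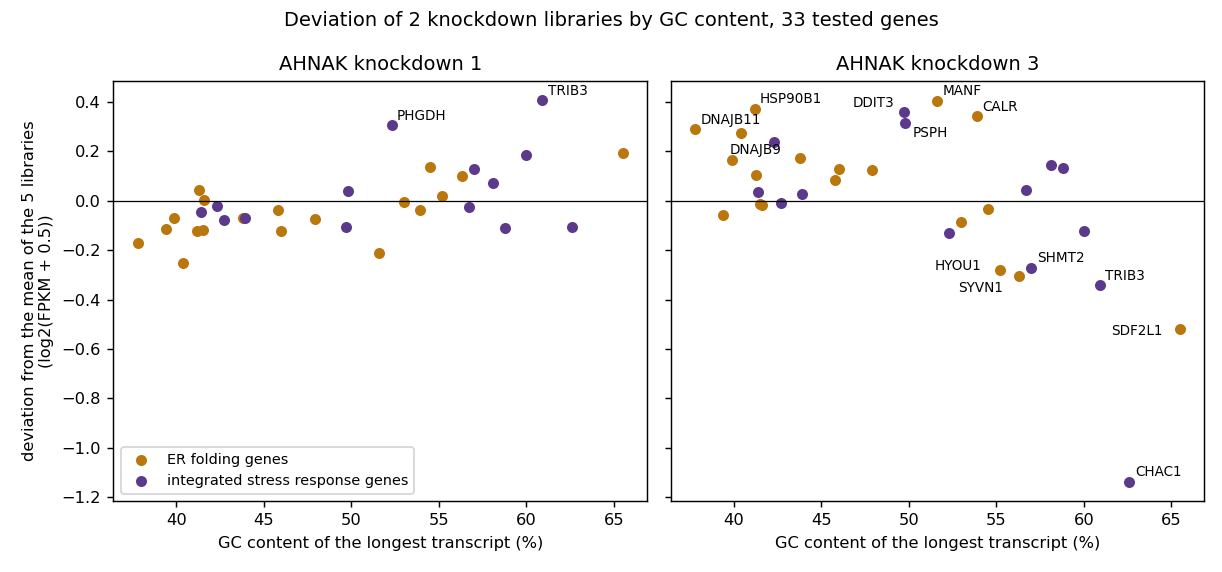
Deviation of knockdown replicate 1 (left) and knockdown replicate 3 (right) from the mean of the 5 libraries, on the log2(FPKM + 0.5) scale, against the GC content of the longest transcript, for the 33 tested genes. The relation runs upward in knockdown replicate 1 and downward in knockdown replicate 3, where SDF2L1 and CHAC1 lie lowest.

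Other genes of the pathways gave 0 calls as well, in lists written with earlier results of these data known. Among 8 sensors and processing genes (such as ERN1, which encodes IRE1) 4 were higher and 4 lower, and among 11 genes of the eIF2 alpha kinases and eIF2 factors 7 were higher and 4 lower, with 0 of either at an unadjusted p under 0.05. Of 46 tested genes of ER folding, translocation and degradation outside the 34, 30 were higher and 16 lower (median 0.07), and 4, or 8.7%, had an unadjusted p under 0.05. Of 35 other tested ATF4 targets 10 were higher and 25 lower (median -0.09, set A -0.14, set B -0.09), and 3, or 8.57%, had an unadjusted p under 0.05, all lower. Both shares were under the 11.7% of all tested genes. Knockdown and control values did not overlap in 16 of the 46 (10 higher, 6 lower), or 34.8%. Among the 35 ATF4 targets this held for 9 (1 higher, 8 lower), or 25.7%, against 32.0% of all tested genes.

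The genes named in these lists are those of small p, so their direction is no separate evidence. ERO1A, the oxidase that recharges the disulfide isomerases and is also induced by low oxygen, was at 33.2, 39.8 and 44.3 FPKM in knockdown replicates 1, 2 and 3, against 22.7 and 24.4 FPKM in control. Every knockdown library lay above both controls, with a log2 difference of 0.71 (SE 0.16, set A 0.74, set B 0.69; limma adjusted p = 0.372). FKBP14, a prolyl isomerase of the ER, and AUP1, a factor of ER-associated degradation, had differences of 0.49 and 0.34. EDEM2, which trims mannose from misfolded glycoproteins, was at 2.79, 2.07 and 1.89 FPKM in knockdown, against 3.00 and 3.42 FPKM in control, a difference of -0.44.

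Among ATF4 targets, GADD45A, a growth arrest gene also induced by p53, was at 40.3, 49.2 and 52.3 FPKM in knockdown replicates 1, 2 and 3, against 85.6 and 66.7 FPKM in control. All knockdown values lay below both controls, with a log2 difference of -0.68 (SE 0.18, set A -0.89, set B -0.43; limma adjusted p = 0.383). TNFRSF10B (DR5), a death receptor that DDIT3 induces, was at 16.8, 16.5 and 18.7 FPKM in knockdown, against 23.8 and 23.5 FPKM in control, a difference of -0.44 in the direction opposite to that of DDIT3. VEGFA was at 45.4, 45.6 and 41.2 FPKM in knockdown, against 56.6 and 54.5 FPKM in control, a difference of -0.33. Each of these 3 lay lower in every knockdown library and did not pass.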

How the data were processed

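The authors deposited FPKM values for each gene symbol and library in 1 table. HISAT2 2.0.1 and StringTie 2.0.6 were used, per the submitters' processing notes, with the builds GRCh38 and mm9 named without a role. Annotation and strand setting: not given in the sources used here. FPKM sums were 374214.8 to 420540.9, and 12087 to 12311 genes reached 1 FPKM. Depth is unknown, and precision rests on the spread between 3 and 2 libraries.

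Groups and replicate numbers came from sample titles. The test covered genes whose mean reached 1 FPKM, fitted as log2(FPKM + 0.5) with limma 3.58.1 in R 4.3.3 (lmFit, eBayes with trend, no covariate, two-sided), with Benjamini-Hochberg adjustment at 0.05. The fit was tested on simulated data with independent noise for each gene. That noise holds neither the GC dependence nor the sets of these libraries, so the simulation does not cover them. Libraries were joined into a set where over 10% of genes under 0.3 FPKM shared 1 ratio between them. Coordinates, overlaps, length and GC content came from GENCODE 29 by symbol, matching 34 members and 96.3% of tested genes. The named genes were all members, AHNAK, and in each other list up to 5 genes per direction of smallest unadjusted p under 0.05. The members and lists were chosen with earlier results of these data known. Alternatives covered pseudocount, filter, scaling, variance model, weights, covariates, single sets and each library left out. The correction for GC content and length (loess, span 0.3) was added after seeing the data.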

Additional observations from a re-analysis of the deposited data

How the results depend on the processing

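No member passed in the pooled fits apart from SEL1L with array weights. Of 461 values of the 33 members under 14 alternatives other than leaving out a library, 415 kept direction and side of the threshold, or lay within the spread between replicates, 25 outside set B had the opposite sign, 2 newly passed (SEL1L with array weights, CHAC1 within set A) and 19 within set B, where 1 library per group allows no test, moved past that spread. The CHAC1 pass (-1.60, adjusted p = 0.000311) used an SE of 0.326 from a spread fitted across genes, against 0.892 from its own libraries with 1 residual degree of freedom, so it is no evidence about CHAC1, and the set A count below rests on the same spread. Causes were not tested except where the construction shows them. Genes called numbered 1 each with a pseudocount of 1, with robust empirical Bayes and without a trend, 1428 with array weights, 121 within set A and 0 to 9 with each library left out. AHNAK passed with array weights (-1.55, adjusted p = 0.0340).

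The integrated stress response median was -0.081 after rescaling to an equal sum (which moved the median of all genes to -0.04), 0.068 with the replicate block, 0.049 within set B and -0.076 to 0.13 with each library left out. The ER folding median was 0.10 within set A and -0.050 to 0.10 with each library left out. Opposite signs, none with a pass, were as follows. After rescaling, DNAJB11 was at -0.030, MANF at -0.0099 and CRELD2 at -0.0014. With array weights, HSP90B1 was at -0.020, HYOU1 at 0.0052, DNAJB11 at -0.063, MANF at -0.094, SYVN1 at 0.12, ATF6 at -0.0076 and SHMT2 at 0.037. Within set A, HSPA5 was at 0.034, CALR at 0.35, HERPUD1 at 0.13, ATF4 at -0.022 and PHGDH at 0.19. Within set B, 11 of the 33 had the opposite sign: HSP90B1 at -0.19, HYOU1 at 0.15, DNAJB11 at -0.15, SDF2L1 at 0.09, MANF at -0.23, CRELD2 at -0.11, SYVN1 at 0.26, ATF6 at -0.10, ATF5 at 0.10, PSPH at -0.00049 and SHMT2 at 0.21. After the GC content and length correction, DNAJB11 was at -0.017, MANF at -0.037 and SYVN1 at 0.034. With a library left out, ranges that crossed 0 were -0.094 to 0.032 for HSPA5, -0.050 to 0.26 for HSP90B1, -0.22 to 0.19 for CALR, -0.12 to 0.11 for DNAJB11, -0.32 to 0.037 for SDF2L1, -0.15 to 0.16 for MANF, -0.049 to 0.15 for CRELD2, -0.14 to 0.095 for HERPUD1, -0.13 to 0.12 for SYVN1, -0.42 to 0.24 for ATF5, -0.019 to 0.36 for TRIB3, -0.16 to 0.095 for PHGDH and -0.21 to 0.11 for SHMT2.

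No label pairs the libraries by replicate number. Same-numbered libraries had correlations of deviations from their group means of -0.0638 and -0.578. With 2 controls these deviations mirror each other by construction, so the values cannot decide whether libraries were paired. The fit with the replicate block called 0 genes and, since only knockdown has a replicate 3, equals leaving that library out for the size of a difference. In it HSP90B1 was at -0.050, DNAJB11 at -0.12, SDF2L1 at 0.037, MANF at -0.15, SYVN1 at 0.12, PHGDH at 0.061 and SHMT2 at 0.076. Where a control library was left out, the other was assumed to vary like the knockdown libraries.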

Other observations

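GDF15, a secreted stress hormone and ATF4 target, was under the minimum level for the test and was picked out here after its values were seen. It was at 0.575, 0.784 and 0.551 FPKM in knockdown replicates 1, 2 and 3, against 0.315 and 0.291 FPKM in control replicates 1 and 2. All knockdown values lay above both controls, unlike those of ASNS. TXNDC5, an ER disulfide isomerase, was also low, at 0.491, 0.337 and 0.0687 FPKM in knockdown, against 0.524 and 0.381 FPKM in control, with the groups overlapping through knockdown replicate 1.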
